A study of Mus musculus with 7 samples.

Results

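The replacement histone variants are the histones that cells can place in chromatin outside DNA replication, and 10 genes that encode them were followed in cultured mouse liver slices with and without valproic acid (VPA). They were taken by symbol, with no use of their values, as H1f0, H1fx, H2afx, H2afz, H2afv, H2afy, H2afy2, H2afj, H3f3a and H3f3b, which are 10 of the 55487 genes in the table. Precision-cut liver slices (PCLS), discs of 250 µm by 3 mm punched from the sliced liver of healthy adult male BALB/c mice, keep hepatocytes, hepatic stellate cells (HSC), endothelium and macrophages together in culture. All RNA was taken on day 3, from 3 libraries of slices in regular medium (CTR) and 4 libraries of slices in the same medium with 2.5 mM VPA. VPA inhibits class I histone deacetylases (HDACs), and in the study it was added to hold back the activation of HSC that slicing sets off. No allele or transgene was involved, and a slice in culture has no blood flow, so immune cells cannot be recruited to it.

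Most histone protein is made from clustered genes without introns that are switched on during DNA replication and whose mRNA normally ends in a stem-loop instead of a poly(A) tail. Replacement variants come from separate genes with polyadenylated mRNA, are made through the whole cell cycle and in cells that no longer divide, and are exchanged into chromatin by dedicated chaperones and remodelling complexes. The adult liver is largely made of non-dividing hepatocytes, in which variants can accumulate. H1f0, the linker histone of differentiated cells, is a classical gene that is induced by HDAC inhibitors in cultured cell lines.

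Several of the genes encode the same or nearly the same protein from coding sequences that differ. H3f3a and H3f3b both encode H3.3 and their proteins were identical over 136 of 136 residues, whereas 95 of 411 coding bases differed. The first 120 coding bases, from GENCODE transcripts on GRCm38, are shown to make this visible, with the 24 differing bases in capitals, of which 22 lie at the third codon base.
H3f3a: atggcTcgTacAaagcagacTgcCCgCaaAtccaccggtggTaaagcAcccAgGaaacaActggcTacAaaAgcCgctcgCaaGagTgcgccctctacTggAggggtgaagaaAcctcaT
H3f3b: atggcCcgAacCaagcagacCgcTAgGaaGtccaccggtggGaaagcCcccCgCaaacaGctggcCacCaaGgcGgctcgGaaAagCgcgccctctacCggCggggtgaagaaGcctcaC
The H2A.Z pair is built the same way. H2afz and H2afv (H2A.Z.1 and H2A.Z.2) differed in 3 of 128 residues and in 81 of 387 coding bases. The other pairs were further apart, with 118 of 129 aligned residues identical between H2afx and H2afj, 255 of 363 between H2afy and H2afy2, and 67 of 155 between the linker histones H1f0 and H1fx. H2A variants differ most at their carboxyl end, and the last 45 coding bases before the stop codon are shown with each Ser-Gln codon pair in capitals. The pair nearest the end of H2afx encodes the serine that is phosphorylated at DNA breaks to give γH2AX.
H2afx: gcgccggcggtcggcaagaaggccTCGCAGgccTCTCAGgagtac
H2afj: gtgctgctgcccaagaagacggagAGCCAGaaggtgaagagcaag
H2afz: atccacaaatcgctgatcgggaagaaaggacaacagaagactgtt
H2afv: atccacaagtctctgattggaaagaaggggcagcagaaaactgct
This stretch held 2 such codon pairs in H2afx, 1 in H2afj and 0 in H2afz and H2afv.

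The libraries held 1400887 to 4773750 counts on genes, and reads from the 3′ end of polyadenylated RNA were counted, so that counts scaled to library size (CPM) of different genes can be compared without a length correction. A library with a count of 0 could have held up to 3 counts, which is 0.579 to 2.37 CPM, and this limit covers counting error only. The best counted hepatocyte genes, Trf and Ahsg, were read in every library, while Ass1 (hepatocyte), Adgre1 and Marco (macrophage) and Gfap (quiescent HSC) were listed at 0 in all 7. The sample titles carry a number after mPCLS, of which 71, 72 and 74 occur in both groups, and they do not say what it marks. Number 74 belongs to the deepest library of each group (CTR replicate 2 and VPA replicate 2). The study's methods count each mouse liver as 1 biological repeat, and the labels do not name the liver of a library, so p-values measure the spread between these samples. A number of genes that were well counted elsewhere were nearly absent from single VPA libraries: of the 2086 to 2191 genes with at least 50 CPM in all other libraries, 0 to 3 had at most 3 counts in a CTR library and 4 to 19 in a VPA library.

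All 10 variants had counts. In CTR the order of the mean levels was H3f3b (294 CPM), H2afj (252), H2afy (120), H2afz (110), H1f0 (87.8), H2afv (39.3), H3f3a (34.9), H2afx (14.6), H1fx (3.37) and H2afy2, which was read in 1 library only. The ranges over the CTR libraries overlapped between H3f3b and H2afj, and between each neighbour from H2afy down to H3f3a. They did not overlap between H2afj and H2afy, between H3f3a and H2afx, or between H2afx and H1fx. In VPA, H1f0 was the third in this order, with a mean of 185 CPM, behind H2afj and H3f3b.

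**Figure D1:**
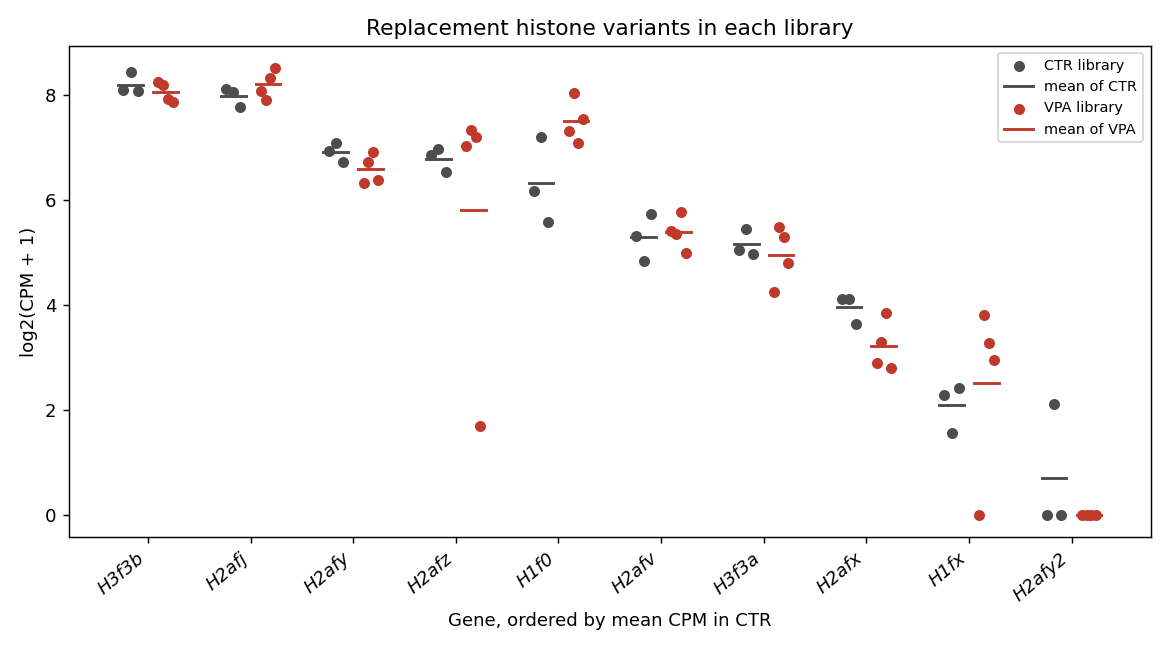
Level of each replacement histone variant, as log2(CPM + 1), with a point for each of the 3 CTR libraries (grey) and 4 VPA libraries (red) and a line at the mean of each group. H1f0 is the gene whose VPA points sit highest over its CTR points, 1 VPA library of H2afz lies near the floor, and H2afy2 is at 0 in all but 1 library.

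H1f0 encodes linker histone H1.0, which binds the DNA between nucleosomes and accumulates in cells that leave the cell cycle (ENSMUSG00000096210, chr15:79028450-79030504 on GRCm38, + strand). Its level was 70.9, 146 and 46.9 CPM in CTR replicates 1 to 3 and 159, 260, 135 and 186 CPM in VPA replicates 1 to 4. Thus 3 of the 4 VPA libraries lay above every CTR library, and VPA replicate 3 lay just below CTR replicate 2. The mean was 87.8 ± 51.5 CPM (SD, n = 3) in CTR and 185 ± 54.0 CPM (SD, n = 4) in VPA, a ratio of 2.10. The log2 fold change was 1.06 ± 0.41 (SE, 95% interval 0.10 to 2.02), with an unadjusted p of 0.0341 and an adjusted p of 0.561 in edgeR's quasi-likelihood test with Benjamini-Hochberg adjustment over 10876 genes. The difference therefore did not pass the threshold of 0.05. A two-sided exact permutation test of its log2 CPM gave p = 0.0571, where 3 libraries against 4 cannot give less than 0.0286.

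Set side by side by the number in the titles, H1f0 was at 46.9 CPM in CTR and at 135 CPM in VPA for 71, at 70.9 and 186 CPM for 72, and at 146 and 260 CPM for 74. VPA was higher at all 3 shared numbers, as it was for 14.9% of all genes tested. H3f3b was lower in VPA at all 3, as were 19.8% of all genes tested. H1fx was also higher in VPA at all 3, but this was fixed by the filter. It reached the level required for testing in these 3 VPA libraries and in 0 CTR libraries. Number 74, the deepest library of each group, had the highest H1f0 in each group. Without CTR replicate 2, CTR stood at 58.9 ± 17.0 CPM (SD, n = 2), the groups did not overlap and the log2 fold change was 1.64 ± 0.34 (SE, edgeR unadjusted p = 0.00231, adjusted p = 0.424). Without VPA replicate 2 it was 0.86 ± 0.42 (SE, edgeR unadjusted p = 0.0865, adjusted p = 0.713) and the groups overlapped. The edgeR unadjusted p of H1f0 also lay above 0.05 without CTR replicate 1 (0.106), CTR replicate 3 (0.0951) or VPA replicate 4 (0.0608). It stayed below 0.05 without VPA replicate 1 (0.0461) or VPA replicate 3 (0.0326). The part of depth in these values was not tested. In whole slices, fewer cells of a type and less RNA per cell cannot be told apart, and this holds for every gene described here.

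H1fx encodes H1.10, a linker histone that is also found in dividing cells (ENSMUSG00000044927, chr6:87980421-87981637, - strand). It was read at 3.87, 1.93 and 4.31 CPM in the CTR libraries and at 0, 13.0, 8.68 and 6.69 CPM in VPA replicates 1 to 4, from at most 43 counts in a library. The groups overlapped through VPA replicate 1, the other VPA libraries lying above every CTR library. The means were 3.37 ± 1.27 CPM (SD, n = 3) and 7.10 ± 5.42 CPM (SD, n = 4), and the log2 fold change of 1.09 ± 1.23 (SE, 95% interval -1.77 to 3.94) had an adjusted p of 0.927. H1fx reached the level required for testing in 3 VPA libraries and in 0 CTR libraries, so that its direction without VPA replicate 1 (mean 9.46 ± 3.24 CPM in VPA, SD, n = 3) is fixed by the filter.

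The 2 linker variants were set beside the linker histones of the replication-dependent cluster, a comparison chosen after their values were seen. Summed over H1f0, H1fx and Hist1h1a to Hist1h1e, linker histone reads amounted to 135, 216 and 97.0 CPM in CTR and 248, 443, 242 and 315 CPM in VPA, so that every VPA library lay above every CTR library. H1f0 made up 56.1 ± 9.98% of these reads in CTR (SD, n = 3) and 59.4 ± 3.34% in VPA (SD, n = 4). Every VPA share lay within the CTR range, 48.3 to 67.4%. Hist1h1e, which encodes H1.4, was read at 26.1 ± 3.21 CPM in CTR and at 59.8 ± 23.7 CPM in VPA, with a log2 fold change of 1.20 ± 0.34 (SE, unadjusted p = 0.00868, adjusted p = 0.398). Hist1h1d, which encodes H1.3, was read at 2.12 ± 0.836 and 8.95 ± 1.87 CPM (log2 fold change 2.05 ± 0.74, SE, unadjusted p = 0.0253, adjusted p = 0.537). Hist1h1c, which encodes H1.2, was read at 29.5 ± 11.6 and 50.1 ± 11.9 CPM (log2 fold change 0.75 ± 0.33, SE, adjusted p = 0.611). None of the 3 genes passed the threshold. All VPA libraries lay above all CTR libraries for Hist1h1e, and also for Hist1h1d, which like H1fx reached the level required for testing in 0 CTR libraries and so had to differ. Over all genes tested, 4.46% had every VPA library above every CTR library. Because the libraries were primed on poly(A), reads of these genes count only their polyadenylated RNA.

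Among 6337 genes with a mean of at least 20 CPM, the level of H1f0 over the 7 libraries was most like that of Hist1h1c (Pearson r of log2 CPM 0.989), followed by Fbxo25 (0.988) and Tiprl (0.978). These are descriptions over 7 libraries that share depth and treatment, and H1f0 was chosen for this search after its values were seen. The stretch around the start of both genes, 250 before and 50 after, are printed from the RefSeq promoter table of GRCm38.p6. Capitals mark the H1 box AAACACA, a motif known from H1 promoters, the CCAAT box and the GC box GGGCGG, each searched on both strands.
H1f0, chr15:79027962-79028261, + strand: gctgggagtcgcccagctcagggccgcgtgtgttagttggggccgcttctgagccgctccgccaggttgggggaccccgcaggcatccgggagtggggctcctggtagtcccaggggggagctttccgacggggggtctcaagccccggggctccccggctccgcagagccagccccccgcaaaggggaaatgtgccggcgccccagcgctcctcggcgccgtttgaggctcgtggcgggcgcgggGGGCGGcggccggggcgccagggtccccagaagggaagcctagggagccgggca
Hist1h1c, chr13:23738557-23738856, + strand: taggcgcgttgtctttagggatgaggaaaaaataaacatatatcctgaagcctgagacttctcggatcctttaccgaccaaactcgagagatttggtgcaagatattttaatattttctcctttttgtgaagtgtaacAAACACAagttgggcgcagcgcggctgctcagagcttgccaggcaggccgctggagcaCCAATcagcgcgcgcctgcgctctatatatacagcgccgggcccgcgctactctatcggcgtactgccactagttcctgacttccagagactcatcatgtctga
Hist1h1c held an H1 box 112 bases and a CCAAT box 54 bases before its start, and Hist1h1d and Hist1h1e held the same motifs in the same order (122 and 51, and 115 and 52 bases before the start). The H1f0 window held a GC box 4 bases before the start and neither of the other motifs. Its RefSeq start lies 238 bases before the GENCODE start given above, so the 2 annotations place the window differently. The bases between the end of the printed window and the GENCODE start were not searched. Whether they hold one of the motifs is therefore not known from this search. The motifs occur in 7.18% (H1 box), 37.4% (CCAAT) and 35.7% (GC box) of 32851 promoters of this length. Promoters were found for 9 of the 10 variants, not for H2afx, and of these 9, 1 held the H1 box (H3f3a), 6 CCAAT, 7 the GC box and 1 the TATA box TATAAA (H3f3b), which occurs in 13.6% of all promoters. The letters alone say nothing on which factor binds there.

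**Figure D2:**
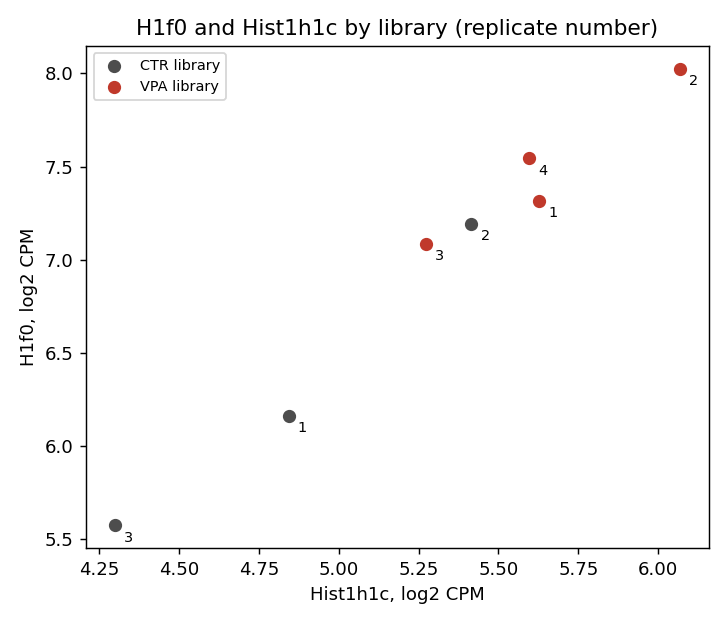
Log2 CPM of H1f0 (vertical) against Hist1h1c (horizontal) in the 3 CTR libraries (grey) and 4 VPA libraries (red), numbered by replicate. The points follow a line within and across the groups (Pearson r 0.989 over 7 libraries), with CTR replicate 2 among the VPA libraries.

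H2afx encodes H2A.X, the variant that is phosphorylated around DNA double-strand breaks (ENSMUSG00000049932, chr9:44334694-44336077, + strand). It was read at 16.3, 16.2 and 11.3 CPM in CTR and at 6.40, 8.78, 13.4 and 5.94 CPM in VPA. VPA replicate 3 lay within the CTR range and the other 3 VPA libraries lay below it. The means were 14.6 ± 2.85 CPM (SD, n = 3) and 8.64 ± 3.42 CPM (SD, n = 4), and the log2 fold change was -0.76 ± 0.51 (SE, edgeR adjusted p = 0.811; two-sided exact permutation p = 0.0857). H2afx shares up to 82 runs of 50 bases with 16 H2A genes of the replication-dependent clusters, so that reads could be split between them, and its level rests on 211 counts in all.

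H2afj encodes H2A.J, a variant close to canonical H2A that is known to accumulate in senescent cells (ENSMUSG00000060032, chr6:136808244-136810074, + strand). Its level was 277, 264 and 215 CPM in CTR and 269, 239, 318 and 363 CPM in VPA, with VPA replicates 3 and 4 above every CTR library and the others within the CTR range. The mean was 252 ± 32.2 CPM (SD, n = 3) in CTR and 297 ± 54.5 CPM (SD, n = 4) in VPA. The log2 fold change was 0.23 ± 0.18 (SE, adjusted p = 0.863).

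H2afz encodes H2A.Z.1, which marks the nucleosomes next to active promoters (ENSMUSG00000037894, chr3:137864487-137866922, + strand). It was read at 115, 123 and 91.0 CPM in CTR and at 130, 161, 145 and 2.23 CPM in VPA, where the last value comes from 3 counts in VPA replicate 4. The first 3 VPA libraries lay above every CTR library and VPA replicate 4 lay below all of them. The means were 110 ± 16.7 CPM (SD, n = 3) and 109 ± 72.6 CPM (SD, n = 4), with an SE of 0.88 on the log2 fold change (adjusted p = 1.000). The mean and the fold change were set by VPA replicate 4. Without it VPA stood at 145 ± 15.3 CPM (SD, n = 3), the groups did not overlap and the log2 fold change was 0.40 ± 0.18 (SE, unadjusted p = 0.0663, adjusted p = 0.535). The exact permutation test then gave p = 0.1, which is as low as 3 libraries against 3 can go. The 4 pseudogenes that share any run of 50 bases with H2afz had 2 counts in all libraries together, and 14 of 2127 well counted genes had at most 3 counts in VPA replicate 4. The cause of the low value was not tested.

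H2afv encodes H2A.Z.2 (ENSMUSG00000041126, chr11:6427229-6444443, - strand). Its level was 38.8, 27.4 and 51.7 CPM in CTR and 41.6, 39.7, 53.7 and 30.5 CPM in VPA, and the groups overlapped over nearly their whole range. The means were 39.3 ± 12.2 and 41.4 ± 9.54 CPM (SD, n = 3 and 4), with a log2 fold change of 0.08 ± 0.30 (SE, adjusted p = 0.975). VPA replicate 4 did not have the low value here that it had for H2afz. H2afz gave 74.7, 81.8 and 63.8% of the reads of the H2A.Z pair in CTR and 75.7, 80.2, 73.02 and 6.82% in VPA, where the last share has a 95% Wilson interval of 2.35 to 18.2% that covers counting error only. Apart from VPA replicate 4, H2afz was thus the better read gene of the pair in every library, with VPA within the CTR range.

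H2afy encodes macroH2A1, an H2A with a large extra domain that is linked to stable gene silencing (ENSMUSG00000015937, chr13:56073619-56136361, - strand). Its level was 121, 134 and 104.5 CPM in CTR and 78.7, 104.5, 120 and 82.5 CPM in VPA. VPA replicates 1 and 4 lay clearly below CTR, VPA replicate 3 lay within the CTR range, and VPA replicate 2 met the lowest CTR library. The means were 120 ± 14.9 CPM (SD, n = 3) and 96.4 ± 19.4 CPM (SD, n = 4), and the log2 fold change was -0.32 ± 0.20 (SE, adjusted p = 0.768; two-sided exact permutation p = 0.143).

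H2afy2, which encodes macroH2A2, was hardly read (ENSMUSG00000020086, chr10:61738665-61784147, - strand). It had 17 counts (3.28 CPM) in CTR replicate 2, the deepest library, and 0 in the other CTR libraries and in all VPA libraries. No fold change is given, because the mean of both groups lay under the floor of 3 counts per library, and the gene was not among those tested. Aifm2, with 323 counts, overlaps it on the other strand. H2afy accounted for 97.6 to 100% of the macroH2A reads in every library.

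H3.3, the H3 of transcribed genes and of heterochromatin outside replication, was read mainly from H3f3b (ENSMUSG00000016559, chr11:116021912-116027962, - strand). H3f3b was the best counted variant, at 270, 344 and 268 CPM in CTR and at 302, 291, 241 and 232 CPM in VPA. VPA replicates 3 and 4 lay below every CTR library and the other 2 within the CTR range. The mean was 294 ± 43.2 CPM (SD, n = 3) in CTR and 266 ± 35.2 CPM (SD, n = 4) in VPA, with a log2 fold change of -0.14 ± 0.17 (SE, adjusted p = 0.927).

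H3f3a, the other H3.3 gene (ENSMUSG00000060743, chr1:180800832-180813943, - strand), was read at 31.8, 42.6 and 30.2 CPM in CTR and at 17.9, 43.9, 37.9 and 26.7 CPM in VPA. The VPA libraries enclosed the CTR range on both sides. The means were 34.9 ± 6.79 and 31.6 ± 11.6 CPM (SD, n = 3 and 4), with a log2 fold change of -0.14 ± 0.35 (SE, adjusted p = 0.966). H3f3b supplied 89.5, 89.0 and 89.9% of the reads of the pair in CTR and 94.4, 86.9, 86.4 and 89.7% in VPA. The values of H3f3a are uncertain because 38 pseudogenes share runs of 50 bases with it and took 92 counts beside its own 616, and H3f3aos overlaps it on the other strand with 11 counts. With the reads of the 10 closest pseudogenes (at least 100 shared runs, 60 counts) added, its log2 fold change was -0.028.

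Across the family, edgeR tested 9 of the 10 genes and called 0 at an adjusted p under 0.05, against 0.00919% of all genes tested. At an unadjusted p under 0.05 it called 1, H1f0, against 8.28% of all genes tested (3.65% higher and 4.62% lower). DESeq2 likewise called 0 at an adjusted p under 0.05, against 1.01% of the genes it gave an adjusted p. For limma-voom it was 0, against 0.00919% of all genes tested. At an unadjusted p under 0.05 DESeq2 called 1, H1f0 (unadjusted p = 0.0157), against 4.54% of all genes. Likewise limma-voom called 1, H1f0 (unadjusted p = 0.0169), against 15.1% of all genes. In 0 of the 9 genes tested did the groups not overlap, against 11.8% of all genes tested (4.46% with all VPA libraries above CTR and 7.38% with all below). The log2 fold changes were above 0 for 4, against 45.8% of all genes tested, and below 0 for 5, with a median that rounds to 0.00 beside -0.06 over all genes tested. For the well counted H2afj and H3f3b, the SE of 0.17 to 0.18 gives 95% intervals of -0.19 to 0.66 and -0.53 to 0.24 on that scale. With 1 library left out, H2afj was at 0.11 to 0.33 and H3f3b at -0.23 to -0.023.

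**Figure D3:**
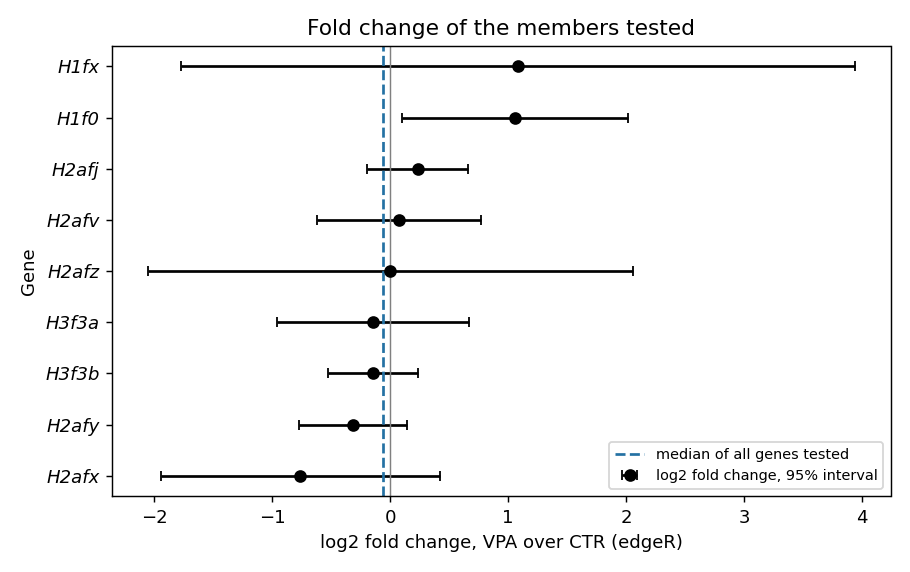
Log2 fold change of VPA over CTR for the 9 variants tested, with 95% intervals from the edgeR fit, a grey line at 0 and a dashed line at the median of all genes tested (-0.06). Only the interval of H1f0 leaves out 0, before adjustment, and those of H1fx and H2afz are the widest.

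Summed over the 10 genes, the level was 944, 1102 and 823 CPM in CTR and 1005, 1160, 1073 and 935 CPM in VPA. The means were 956 ± 140 CPM (SD, n = 3) and 1043 ± 96.0 CPM (SD, n = 4), and the groups overlapped. Within the sum, H1f0 made up 7.51, 13.2 and 5.69% in CTR and 15.8, 22.4, 12.6 and 19.9% in VPA, where VPA replicate 3 lay below CTR replicate 2 and the other VPA libraries above all of CTR. Over the 7 libraries, the log2 CPM of H2afx and H2afy were the most alike pair (Pearson r 0.960) and those of H2afz and H2afj the most opposed (-0.664), as descriptions of 7 points that share library and depth. With 1 library left out, the first stayed between 0.946 and 0.977, while the second rested on VPA replicate 4, without which it was 0.488.

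**Figure D4:**
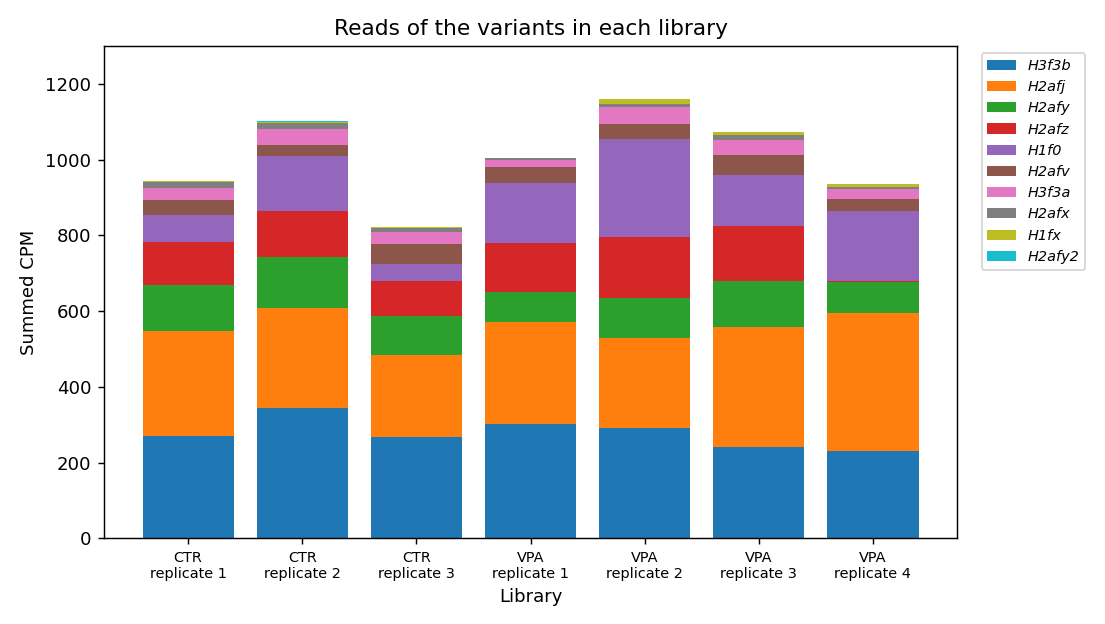
CPM of the 10 replacement histone variants stacked for each of the 7 libraries, from the best to the least counted gene in CTR. H3f3b and H2afj make up the lower part of each bar, the H1f0 segment is tallest in VPA replicate 2 (260 CPM), and the H2afz segment is nearly absent from VPA replicate 4.

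The likeness search was also made for the gene with the largest fold change in the edgeR fit, H1fx, and for the best counted one, H3f3b. H1fx led H1f0 by 1.09 to 1.06 there, but it was tested through VPA only, and H1f0 was ahead with limma-voom (1.11 to 1.05), in the difference of mean log2 CPM (1.18 to 0.40) and without CTR replicate 2 (1.64 to 0.79). H1fx was most like Sar1b (r 0.983), Nub1 (0.975) and Mrpl30 (0.972). H3f3b was most like Rps24 (0.983), Mrpl18 (0.962) and Polr2a (0.947).

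Variants are placed by chaperones and remodelling complexes, and of 30 such genes 27 were tested, 21 with a log2 fold change below 0 and 6 above. Their median was -0.28 beside -0.06 over all genes tested, and their summed level was 3158 to 3471 CPM in CTR and 2084 to 2810 CPM in VPA, which did not overlap. None passed at an adjusted p under 0.05 in edgeR (smallest 0.101), and at an unadjusted p under 0.05 there were 6 lower (1 tested through CTR only) and 0 higher, against 4.62% and 3.65% of all genes tested. Chaf1a, a subunit of CAF-1, which deposits H3 and H4 during replication, was read at 51.5 ± 16.5 CPM in CTR (SD, n = 3) and had 0 counts in all 4 VPA libraries, at least 27.8-fold lower at the floor of 3 counts per library. It is the gene tested through CTR only and so had to differ. Yeats4, shared by the complexes that deposit H2A.Z, had a log2 fold change of -1.03 (unadjusted p = 0.0326). Among the genes with an unadjusted p under 0.05, the next largest changes were in genes whose proteins bind histones, with log2 fold changes of -0.70 for Set, -0.52 for Nap1l1 and -0.46 for Dek, an H3.3 chaperone (edgeR unadjusted p = 0.00441, 0.00356 and 0.0156). The dedicated H3.3 chaperones Hira (-0.08) and Daxx (0.14) and the H2A.Z remover Anp32e (0.26), named after their values were seen, had adjusted p values of 0.982, 0.960 and 0.937. Atrx (-0.47), Cabin1 (-0.59), Ubn1 (-0.26) and Ubn2 (0.03) of the same list, named in the same way, had adjusted p values of 0.639, 0.919, 0.902 and 0.981. Vps72, also named after its values were seen, binds H2A.Z for its deposition and was read at 119 ± 15.1 CPM in CTR and at 68.5 ± 47.2 CPM in VPA, with 0 counts in VPA replicate 1.

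The HDACs that VPA inhibits were tested for 3 of 4 genes, all with a log2 fold change below 0 (median -0.09) and none at an unadjusted p under 0.05. The best counted were Hdac2, at 82.9 ± 15.0 CPM in CTR and at 54.5 ± 40.1 CPM in VPA with 0 in VPA replicate 1, and Hdac1, at 30.7 ± 4.72 and 28.9 ± 2.61 CPM.

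**Figure D5:**
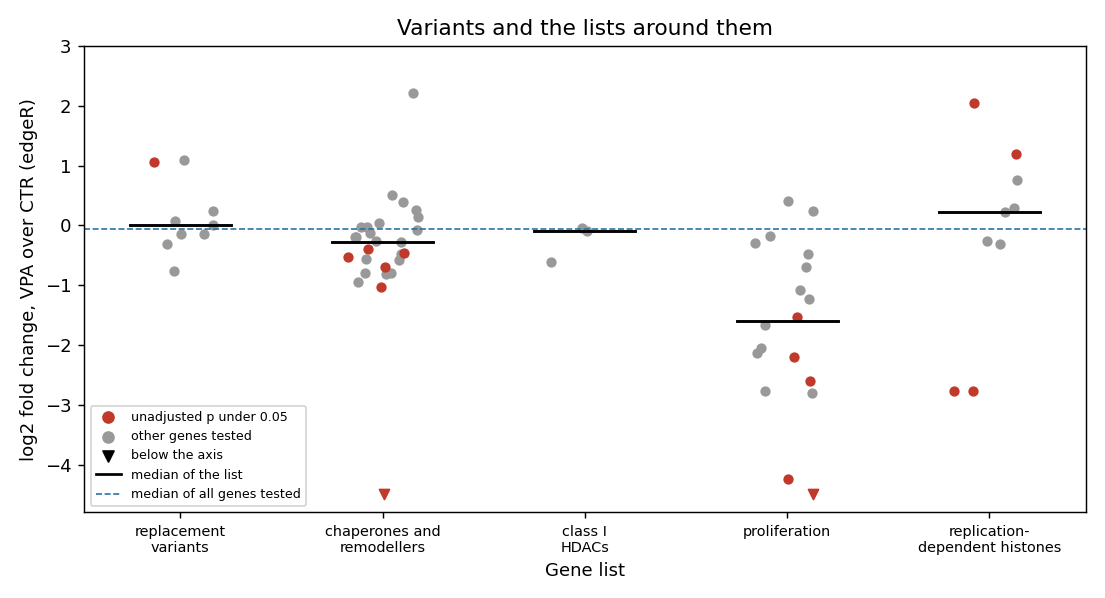
Log2 fold change of VPA over CTR for each tested gene of 5 lists, red at an unadjusted p under 0.05, with a line at the median of each list and a dashed line at that of all genes tested. Triangles stand for Chaf1a and Mcm4, which had 0 counts in all VPA libraries and whose fitted values lie below the axis. The variants lie around 0 (median 0.00), the chaperones slightly below it (-0.28) and the proliferation genes furthest below (-1.59). Of the 18 proliferation genes tested, 4 were tested through CTR only, so that their direction was fixed by the filter.

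The replication-dependent histone genes are the nearest group for comparison. Of 67 such genes, 9 passed the filter on low counts, and at an unadjusted p under 0.05 there were 2 higher, Hist1h1e and Hist1h1d described above (1 of them tested through VPA only), and 2 lower, against 3.65% higher and 4.62% lower of all genes tested. Hist1h2ap, a canonical H2A gene, was read at 40.1 ± 6.60 CPM in CTR and at 5.90 ± 1.66 CPM in VPA, a log2 fold change of -2.78 ± 0.36 (SE, adjusted p = 0.101), and Hist1h2ao had nearly the same reads (-2.77). Their median was 0.23. No test of the difference between these genes and the variants was made.

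Genes of dividing cells and of several cell types were read in the same libraries. Of 31 proliferation genes 18 were tested, 16 of them below 0 with a median of -1.59, and 5 were lower at an unadjusted p under 0.05: Mcm4 (0 in all VPA libraries, at least 5.58-fold lower), Mki67 (21.5 ± 6.95 CPM in CTR and 1.12 ± 2.24 CPM in VPA), Cenpf (log2 fold change -2.60), Top2a (-2.21) and Mcm3 (-1.53). The first 3 of these reached the level required for testing in CTR libraries only and so had to differ, and 4.62% of all genes tested were lower at this p. Of the 18, 4 were tested through CTR only, and others reached the level in 3 CTR libraries but in 1 or 2 VPA libraries. The number below 0 and the median thus rest in part on the filter. The summed level of the 31 proliferation genes was 419 to 550 CPM in CTR and 210 to 311 CPM in VPA, and Aurkb, Bub1 and Kif20a were at 0 throughout. Activated HSC genes came to 3792 to 6315 CPM in CTR and 2220 to 3201 CPM in VPA (6 of 14 lower at an unadjusted p under 0.05, median -0.99). The best counted were Sparc (log2 fold change -1.04) and Fn1 (0.21). Endothelial genes came to 270 to 294 CPM in CTR and 67.8 to 255 CPM in VPA (1 of 8 lower, tested through CTR only, median -1.0, best counted Kdr and Pecam1).

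For the other cell type lists the sums overlapped between the groups. Hepatocyte genes, best counted in Trf and Ahsg, came to 8515 to 20870 CPM in CTR and 6811 to 18510 CPM in VPA (14 of 17 above 0, median 0.27). Quiescent HSC genes (Ecm1 and Rgs5) came to 226 to 470 and 176 to 476 CPM (median -0.35), macrophage genes (Cd68 and Lyz2) to 244 to 304 and 266 to 432 CPM (median 0.42), and cholangiocyte genes (Spp1 and Sox9) to 425 to 708 and 271 to 773 CPM (median -0.16), where 1 of 5, Cldn4, named after its values were seen, was lower at an unadjusted p under 0.05 (log2 fold change -2.11, adjusted p = 0.142), against 4.62% of all genes tested. No gene of these lists passed at an adjusted p under 0.05 in edgeR. The part of proliferation or of cell composition in the values of the variants was not tested.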

How the data were processed

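Single-end 3′ end RNA-seq libraries (QuantSeq) of PCLS were analysed, 3 CTR and 4 VPA, grouped by their labels. The authors mapped the reads to GRCm38 (mm10) with STAR, also naming StringTie in their processing notes, and deposited raw counts per Ensembl gene without normalization. The counting program, whether strand was used and how reads with several matches were treated are not given in the sources used here, so genes that overlap or share reads are uncertain. GENCODE supplied gene symbols and coordinates on the same build.

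The counts were analysed in R 4.3.3 with edgeR 4.0.16 (TMM, filterByExpr, robust quasi-likelihood test, condition as the only term), with Benjamini-Hochberg adjustment over 10876 genes and a threshold of 0.05. DESeq2 (1.42.0), the tool named in the study, and limma-voom (3.58.1) served as alternatives. CPM are counts over the TMM-scaled library size, and log2 CPM have a prior count of 2. Single values were compared by exact permutation (two-sided) over the 35 ways to assign 7 libraries to 3 and 4. Every pair of libraries of a group differed by more than sampling noise (chi-square per degree of freedom 14.7 to 27.3). Other alternatives changed the normalization, filter, dispersion, prior count, blocking and copies counted, and left out single libraries. Scripts were first tested on simulated counts with a smaller spread than these libraries have. That test does not show how the scripts perform at the spread found here. Coding sequences came from GENCODE transcripts and promoters from RefSeq.

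The members were taken by symbol and their values were not used, but members and lists were chosen with earlier results of these data known. All members are named. From the chaperone, HDAC, proliferation and replication-dependent histone lists, up to 5 genes with an unadjusted p under 0.05 are named, largest change first, otherwise the 2 best counted, and from cell type lists the 2 best counted and those at 0. Genes most like the variant with the largest change and the best counted variant are named by correlation. Names outside this rule are said to be chosen later. Experiments other than the RNA-seq were not analysed here.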

Additional observations from a re-analysis of the deposited data

Results flagged for a closer look

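The log2 CPM of H2afz in VPA replicate 4 was 1.61, set apart from the other 3 VPA libraries by more than Dixon's 95% critical value of 0.829 for 4 samples allows. On CPM instead of log2 CPM its gap was 0.806, under that value. It comes from 3 counts, while its partner H2afv was read at 30.5 CPM in the same library. Over the 10876 genes tested, a low library of this kind in VPA was found for 848 genes (7.80%), of which 125 had it in VPA replicate 4, and a high one for 444 genes (4.08%).

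The total of VPA replicate 2, 3102450 counts, stood apart from the totals of the other VPA libraries, 1400887 to 1515954 counts. In all, 20 measures were checked in this way (those of H2afy2, equal in all VPA libraries, could not be), among them CPM and log2 CPM of the same genes. By design the rule sets apart about 1 in 20 groups by chance, low and high together. Over all genes tested the shares were larger, 7.80% low and 4.08% high.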

How the results depend on the processing

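No variant passed at an adjusted p under 0.05 under any alternative run, which included DESeq2, limma-voom, other normalizations and filters and leaving out each library. With all libraries, an unadjusted p under 0.05 gave 1 (H1f0). That call was lost without CTR replicate 1, CTR replicate 3, VPA replicate 2 or VPA replicate 4 (edgeR unadjusted p = 0.106, 0.0951, 0.0865 and 0.0608). The number of variants whose groups did not overlap was 1 with library sizes without TMM (H2afy) and 0 to 2 with 1 library left out: H1f0 without CTR replicate 2, H2afx and H2afy without CTR replicate 3, H1fx without VPA replicate 1 (fixed by the filter), H1f0 and H2afx without VPA replicate 3, and H2afz without VPA replicate 4. The share of all tested genes whose groups did not overlap was then also higher, 12.6% without TMM and 15.5 to 22.8% with 1 library left out. The summed level of the variants was 86.5 CPM higher in VPA, 39.4 without TMM and 19.8 to 159 with 1 library left out. The log2 fold change of H1f0 stayed above 0 in 19 alternatives, between 0.74 and 1.64, with an adjusted p of 0.227 to 1.000. Some of these alternatives could not move it. Other p thresholds and no robust dispersion left it at 1.06, and H1f0 had 0 pseudogene copies to add.

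Directions changed for 3 genes whose log2 fold change was near 0. H2afz was at 0.015 with RLE and 0.017 with upper quartile normalization, at -0.81 with limma-voom and at -0.24 to 0.40 with 1 library left out. H2afv was at -0.017 with no filter on low counts and at -0.14 to 0.30 with 1 library left out. H3f3a was at -0.34 to 0.052 with 1 library left out. Apart from VPA replicate 4 for H2afz, the cause was not tested. Over all genes, edgeR called 1, DESeq2 154, edgeR without a filter 10 and edgeR with at least 10 counts in every library 36.

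The labels do not say that the number in the titles or the replicate number pairs libraries, and the correlations of their deviations, not all over 0.1, were 0.107, 0.0256 and 0.0546 for numbers 71, 72 and 74 and -0.0539, 0.0546 and 0.107 for replicates 1 to 3. With the number in the titles as a replicate block 0 variants passed, and 0 of all 10876 genes tested. H1f0 was then at 1.23 with a smaller SE of 0.20 (edgeR unadjusted p = 0.00256, adjusted p = 0.494), H2afz at -0.67 and H3f3a at 0.038. With replicate number as the block 0 variants and 0 of all genes tested passed, H1f0 was at 1.16 (adjusted p = 0.443) and H2afz at 0.41. Permutation tests with a library left out were not run for every variant, since none can reach 0.05. H1fx, H2afx and H2afy2 rest on 91, 211 and 17 counts in all.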
